A study of Mus musculus with 24 samples.

Results

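Counts of 49 genes for the vacuolar proton pump and the lysosome were described across 24 RNA-seq libraries. The genes were taken by symbol from a list of pump subunits, pump accessory proteins, lysosomal ion transporters, cathepsins, other lysosomal enzymes, lysosomal membrane proteins and transcription factors. They are 49 of the 54232 gene identifiers in the count tables. Of the 49, 18 were pump genes: 2 osteoclast-type subunits, 14 ubiquitous subunits and 2 accessory proteins. The other 31 were lysosomal genes.

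Female C57BL/6 mice aged 6 to 8 weeks gave bone marrow, whose stromal cultures were grown for 7 days in medium with serum and then sorted. The groups were knock-in hematopoietic (genotype Sh3bp2KI/KI, CD45+Sca1+), wild type hematopoietic (CD45+Sca1+), knock-in mesenchymal (Sh3bp2KI/KI, CD45-Sca1+) and wild type mesenchymal (CD45-Sca1+), with 6 libraries each. The knock-in is on both copies of Sh3bp2, an adaptor protein gene. The labels state neither which residue it alters nor a tissue restriction. The labels do not say whether the 6 replicates of a group came from separate animals or cultures, so p-values measure the spread between these libraries only.

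The vacuolar proton pump moves protons across membranes with energy from ATP. Its V1 sector, in the cytosol, splits ATP, and its V0 sector, in the membrane, carries the protons. Every cell uses it to acidify lysosomes, where cathepsins and other hydrolases work, and osteoclasts also place it in the plasma membrane facing bone, where the acid dissolves mineral. Osteoclasts use particular forms of some subunits for this: the a3 subunit, encoded by Tcirg1, and the d2 subunit, encoded by Atp6v0d2. Loss of TCIRG1, CLCN7 or OSTM1 causes osteopetrosis in humans. The transcription factors TFEB and TFE3 bind a short promoter element found in many pump and lysosome genes.

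Total counts per library ranged from 9875390 to 15826711. All 16 leukocyte markers were higher in hematopoietic libraries and all 23 stromal markers lower, in wild type. RNA of the other population was estimated at 5.06% to 21.8% in knock-in hematopoietic and 6.29% to 19.2% in wild type hematopoietic libraries, against 0.130% to 0.923% in knock-in mesenchymal and 0.273% to 0.602% in wild type mesenchymal libraries. Levels of 13 osteoclast markers, summed, were 2807 to 5934 CPM (counts scaled to a common library size) in knock-in hematopoietic libraries, against 815 to 2458 CPM in wild type ones, and 11 of the 13 rose with the knock-in. Of 15 macrophage markers tested, 1 rose and 7 fell. Of all genes tested, 9.01% rose and 6.89% fell. Summed macrophage markers did not fall, with 18028 to 26484 CPM in knock-in and 13498 to 22153 CPM in wild type hematopoietic libraries. Such a sum follows its most abundant genes, and the median log2 fold change of the 15 tested macrophage markers was -0.39. A 16th macrophage marker, Itgam, was listed at 0 in every library. The part of these shifts in the results on pump genes was not tested, and in bulk libraries more cells of a type and more RNA per cell cannot be told apart.

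The promoter element of the pump and lysosome genes was looked up in reference sequence, after the expression tests. RefSeq windows of GRCm38.p6, 250 bases before to 50 bases after the start of transcription, were present for 40 of the 49 members. The letters TCACGTG, or CACGTGA on the other strand, stood in the windows of 12 of these 40 genes (30.0%), against 1160 of all 27025 genes with windows (4.292%). The related TCATGTG, or CACATGA on the other strand, stood in 7 of the 40 (17.5%), against 4.311% of all genes. The sequence TGAGTCA, or TGACTCA on the other strand, known as a site for AP-1 factors, stood in 4 of the 40 (10.0%), against 5.946%. A match is a description of letters and not of binding. The 12 genes with TCACGTG were Atp6v0b, Atp6v0d1, Atp6v0e, Atp6v1a, Clcn7, Mcoln1, Ctsa, Ctsd, Lamp1, Gla, Glb1 and Lgmn. The windows of the 4 among them that rose in knock-in hematopoietic cells are given from 5′ to 3′ on the gene's strand, with the match, on either strand, in capitals and overlapping matches run together. Atp6v0b lies at chr4:117887280-117887579 on the minus strand, Atp6v1a at chr16:44139210-44139509 on the minus strand, Clcn7 at chr17:25133141-25133440 on the plus strand and Atp6v0e at chr17:26676146-26676445 on the plus strand.
Atp6v0b: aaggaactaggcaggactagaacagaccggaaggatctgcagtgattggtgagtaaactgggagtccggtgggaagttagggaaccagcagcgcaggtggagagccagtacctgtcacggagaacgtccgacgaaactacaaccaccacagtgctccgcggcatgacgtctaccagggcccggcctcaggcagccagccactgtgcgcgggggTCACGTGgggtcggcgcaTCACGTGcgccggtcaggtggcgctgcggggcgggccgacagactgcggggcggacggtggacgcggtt
Atp6v1a: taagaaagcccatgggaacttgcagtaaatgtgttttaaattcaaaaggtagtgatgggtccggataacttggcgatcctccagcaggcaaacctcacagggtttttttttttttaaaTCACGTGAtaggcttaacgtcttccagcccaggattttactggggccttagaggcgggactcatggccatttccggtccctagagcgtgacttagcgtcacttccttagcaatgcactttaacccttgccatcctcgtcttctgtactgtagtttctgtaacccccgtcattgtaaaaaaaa
Clcn7: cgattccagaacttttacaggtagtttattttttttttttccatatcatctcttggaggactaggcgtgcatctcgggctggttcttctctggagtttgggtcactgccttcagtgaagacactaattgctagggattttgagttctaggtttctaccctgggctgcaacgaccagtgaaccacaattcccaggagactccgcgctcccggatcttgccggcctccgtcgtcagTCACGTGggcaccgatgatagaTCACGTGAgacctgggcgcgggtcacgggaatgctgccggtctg
Atp6v0e: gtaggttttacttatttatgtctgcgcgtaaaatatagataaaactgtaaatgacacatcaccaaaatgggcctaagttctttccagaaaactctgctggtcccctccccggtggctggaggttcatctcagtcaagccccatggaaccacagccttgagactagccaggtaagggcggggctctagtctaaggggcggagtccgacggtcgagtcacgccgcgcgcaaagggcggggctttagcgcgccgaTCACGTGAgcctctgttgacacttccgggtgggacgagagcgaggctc
Atp6v0b and Clcn7 held 2 matches each, and Atp6v1a and Atp6v0e 1 each. In Atp6v0b the first match began 37 bases before the start, in Clcn7 16 bases before and in Atp6v1a 132 bases before, whereas in Atp6v0e it lay just past the start.

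In hematopoietic cells, 19 of the 48 tested members were higher with the knock-in and 2 were lower. Calls were made with edgeR's quasi-likelihood test at a threshold of 0.05, after Benjamini-Hochberg adjustment over all genes. Over all 14030 genes tested there, 15.9% were called, 9.01% higher and 6.89% lower. The higher members were mostly pump genes: 13 of the 17 tested pump genes rose and 1 fell, with a median log2 fold change of 0.51. Of the 31 lysosomal genes outside the pump, 6 rose and 1 fell, with a median of 0.03, where all genes had a median of -0.00. The 49th member, Atp6v0c, which encodes the proton-carrying c ring subunit, was listed at 0 in all 24 libraries and had no test. All 21 called members had the same direction in each of the 2 sets of libraries that the file names mark. The calls were made on these same libraries, so this agreement is no separate support for them. With the 3 libraries per group of set 1 alone 9 members were called, and with those of set 2 alone 3 were.

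**Figure D1:**
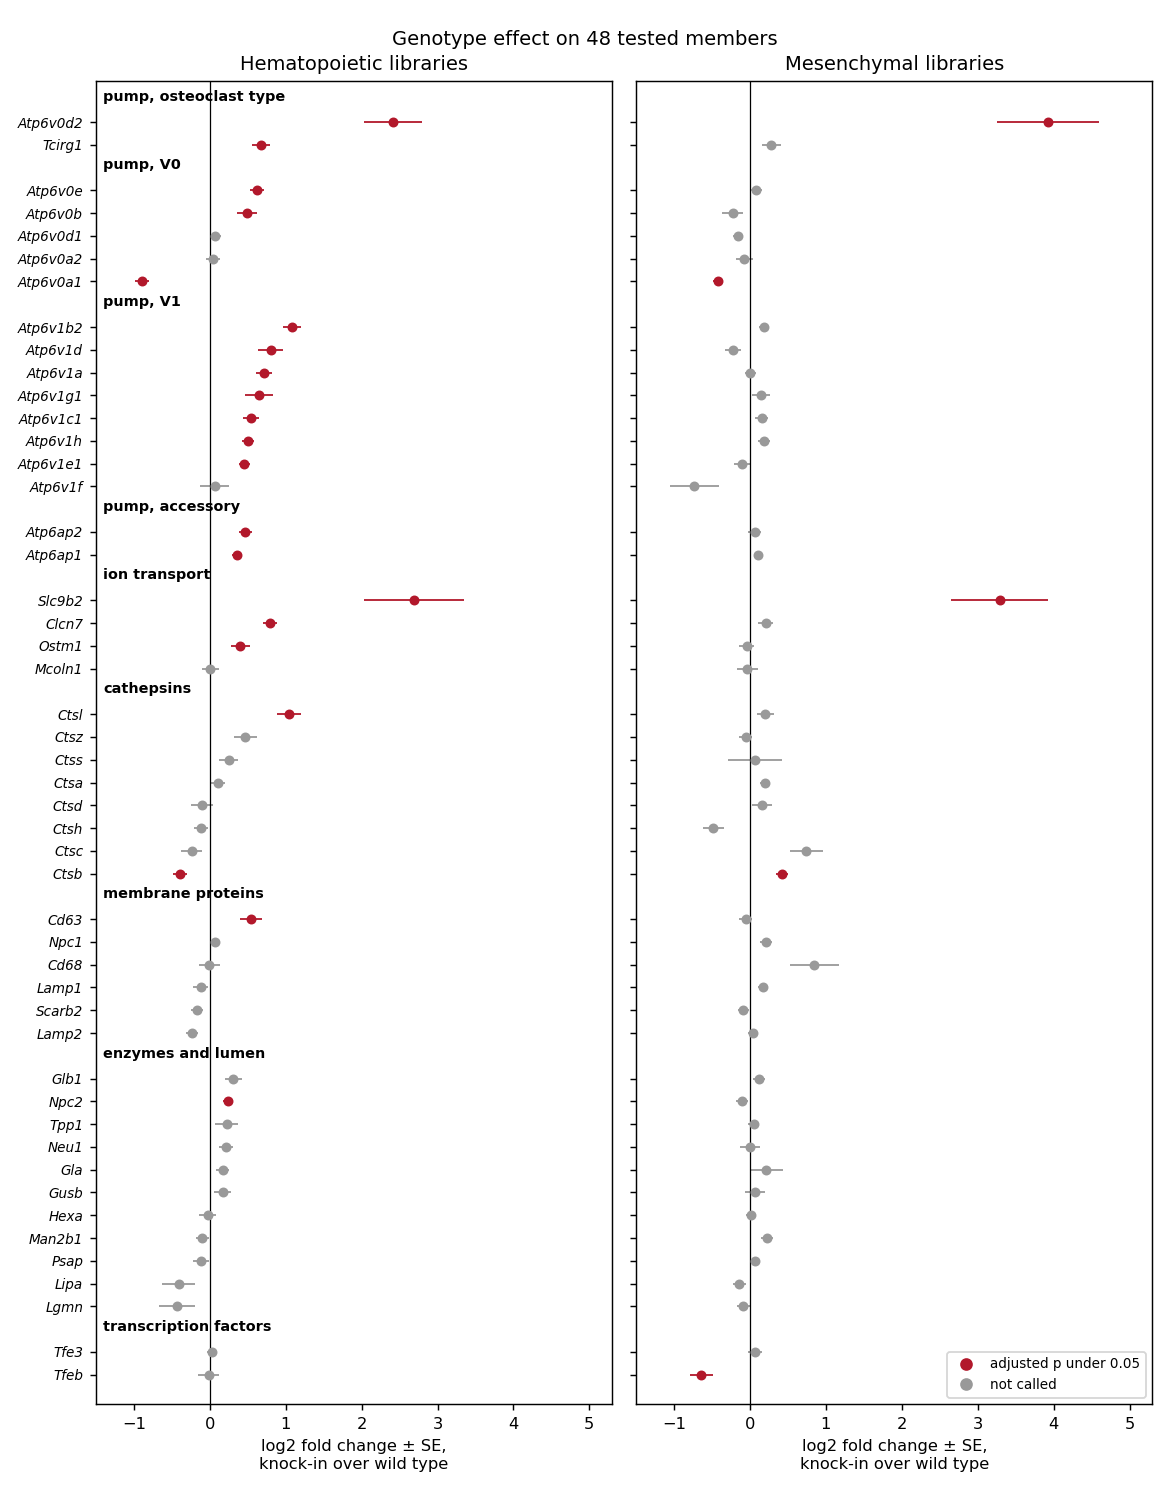
Log2 fold change, knock-in over wild type, of each tested member in hematopoietic and in mesenchymal cells (horizontal axis), with members down the page by role and bars for the standard error. Red points mark an adjusted p under 0.05 and grey points the rest; pump subunits lie mostly to the right of 0 in hematopoietic cells, with Atp6v0a1 to the left, and most members lie near 0 in mesenchymal cells.

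Both osteoclast-type subunits rose. Tcirg1, for the a3 subunit of the pump at the ruffled border of osteoclasts, had 267, 344 and 386 CPM (lowest, median and highest of 6) in knock-in hematopoietic libraries, against 171, 202 and 276 CPM in wild type ones. The ranges overlapped slightly, the lowest knock-in library being just under the highest wild type one. The log2 fold change of Tcirg1 was 0.68 (SE 0.12; edgeR adjusted p = 0.0020961). Atp6v0d2, for the d2 subunit that is also needed for fusion of osteoclast precursors in mice, had 353, 654 and 767 CPM in knock-in libraries, against 46.7, 106 and 203 CPM in wild type ones. Every knock-in library lay above every wild type one. The log2 fold change was 2.42 (SE 0.39; edgeR adjusted p = 0.0014474), the largest among pump genes. By file-name set it was 2.20 in set 1 and 2.64 in set 2, with edgeR adjusted p = 0.061535 and 0.062335 on 3 libraries per group.

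Of their 3 ubiquitous paralogues, 1 fell and the other two were not called. Atp6v0a1, for the a1 subunit, had 223, 256 and 286 CPM in knock-in hematopoietic libraries, against 403, 476 and 516 CPM in wild type ones. Every knock-in library was below every wild type library, and the log2 fold change was -0.89 (SE 0.09; edgeR adjusted p = 5.7708e-05). It was -0.98 in set 1 and -0.79 in set 2, and was called in each. Atp6v0a2, for the a2 subunit of Golgi and endosomes, had 59.7, 69.5 and 76.6 CPM in knock-in libraries and 52.9, 67.5 and 75.6 CPM in wild type ones (log2 fold change 0.04, edgeR adjusted p = 0.80145). Atp6v0d1, for the d1 subunit, had 135, 173 and 186 CPM in knock-in libraries and 147, 155 and 180 CPM in wild type ones (log2 fold change 0.07, SE 0.07, edgeR adjusted p = 0.56448). For both genes the groups overlapped over most of their range.

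**Figure D2:**
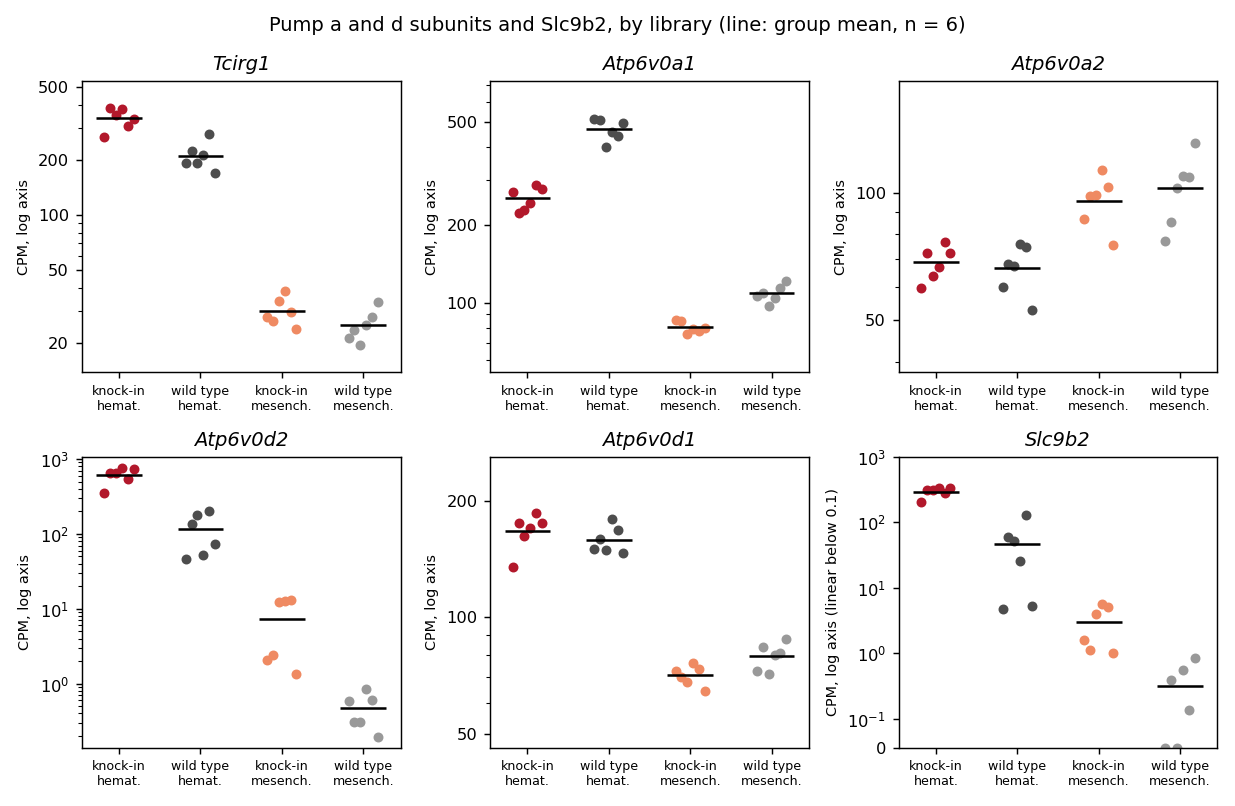
Level in CPM (log axis; linear below 0.1 for Slc9b2) of the a subunits, the d subunits and Slc9b2 in every library, with knock-in left of wild type in each population and a line at the mean of 6. Tcirg1, Atp6v0d2 and Slc9b2 sit higher and Atp6v0a1 lower in knock-in hematopoietic libraries, while Atp6v0a2 and Atp6v0d1 overlap.

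Levels were set against exon length, as CPM per kilobase, to compare paralogues within a library. The a3 form made up 53.7%, 60.7% and 65.2% (lowest, median and highest) of the summed a1, a2 and a3 transcript in knock-in hematopoietic libraries, against 30.8%, 35.9% and 43.3% in wild type ones. The a1 form averaged 31.9% of that sum in knock-in libraries, against 56.4% in wild type ones, and the a2 form 8.32% in knock-in and 7.75% in wild type libraries. By mean share the most abundant a form was a3 in the knock-in and a1 in the wild type. The d2 form made up 63.3%, 71.9% and 74.8% of the summed d1 and d2 transcript in knock-in libraries, against 16.2%, 30.7% and 44.3% in wild type ones. The groups did not overlap for either share. No test was made of the shares. Among the 3 wild type libraries with the highest d2 share, replicates 2, 3 and 5, the summed osteoclast markers were 1490, 1447 and 2458 CPM, against 815 to 905 CPM in the other 3 wild type libraries. On the same scale Atp6v0d2 was the most abundant of the pump genes in knock-in hematopoietic cells, with a mean of 227.5 CPM per kilobase, and ranked 8 of 17 in wild type cells, with 42.5 CPM per kilobase. With the longest coding transcript as length, an alternative chosen after seeing the data, it ranked 1 in the knock-in and 12 in the wild type. Atp6v0c, listed at 0, could not be ranked.

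**Figure D3:**
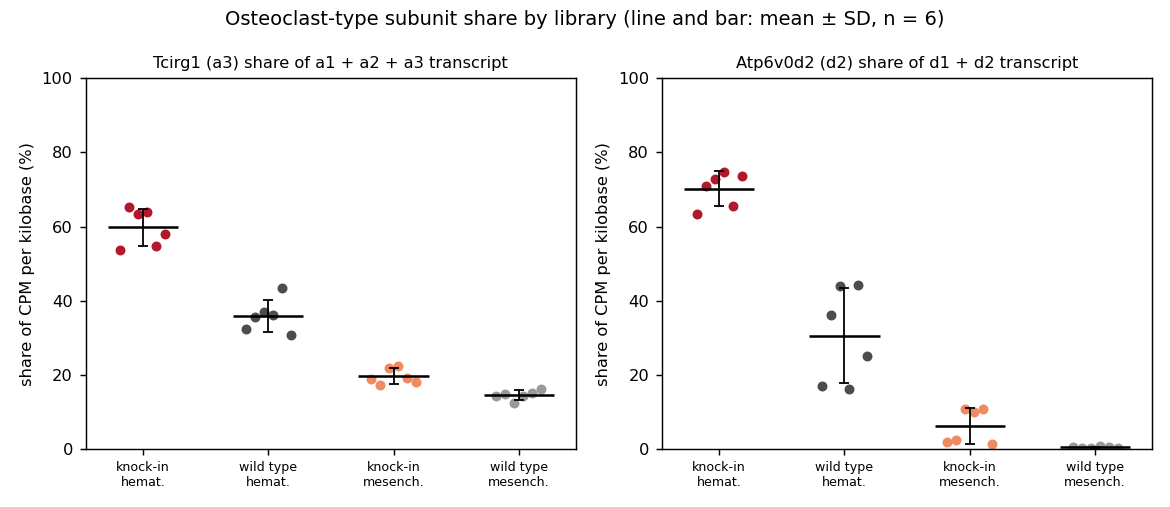
Share of the a3 form (Tcirg1) among a1, a2 and a3 transcript and of the d2 form (Atp6v0d2) among d1 and d2 transcript, in percent of CPM per kilobase, for every library, with mean and SD of 6. Knock-in hematopoietic libraries average 59.8% for a3 and 70.2% for d2, above every wild type hematopoietic library.

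Of the other V0 genes, 2 rose. Atp6v0e, for the small e subunit, had 92.9, 121 and 125 CPM in knock-in hematopoietic libraries, against 62.6, 71.6 and 95.7 CPM in wild type ones. The groups overlapped by a narrow margin, with a log2 fold change of 0.62 (SE 0.10; edgeR adjusted p = 0.0008289). Atp6v0b, for another proton-carrying subunit, had a log2 fold change of 0.49 (SE 0.13; edgeR adjusted p = 0.023017). Its call was lost without knock-in replicate 2, 3 or 4 or wild type replicate 3 (edgeR adjusted p = 0.051074 to 0.058952), and without the library of highest estimated stromal share in each genotype (0.093804), an alternative chosen after seeing the data. The levels of the 5 tested ubiquitous V0 genes, summed, averaged 676 ± 50.5 CPM in knock-in libraries and 821 ± 52.5 CPM in wild type ones (SD, n = 6 each). Atp6v0a1 was the largest term of that sum in the wild type.

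Of the 8 V1 genes, 7 rose and none fell, with a median log2 fold change of 0.59. Summed V1 levels averaged 2055 ± 320 CPM in knock-in hematopoietic libraries and 1240 ± 180 CPM in wild type ones (SD, n = 6 each), with ranges of 1500 to 2402 CPM in knock-in and 1037 to 1556 CPM in wild type libraries. Atp6v1b2, for the ubiquitous B subunit that takes part in ATP binding, had 409.97, 575 and 710 CPM in knock-in libraries, against 224, 262 and 351 CPM in wild type ones. No library of one genotype fell in the range of the other. Its log2 fold change was 1.08 (SE 0.12; edgeR adjusted p = 8.9901e-05), and it was called in each file-name set, at 1.14 and 1.04.

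Atp6v1a, for the catalytic A subunit, had 442, 608 and 723 CPM in knock-in hematopoietic libraries, against 303, 358 and 446 CPM in wild type ones. A single knock-in library lay below the highest wild type one, and the log2 fold change was 0.72 (SE 0.11; edgeR adjusted p = 0.00074015). Atp6v1e1, for a stalk subunit, had 133, 170.2 and 196 CPM in knock-in libraries, against 106, 121 and 143 CPM in wild type ones (log2 fold change 0.45, SE 0.07, edgeR adjusted p = 0.0011884). Atp6v1h, for a subunit that regulates the coupling of the sectors, had 165, 223 and 249 CPM in knock-in libraries, against 132, 158 and 174 CPM in wild type ones (log2 fold change 0.51, SE 0.08, edgeR adjusted p = 0.0013607). All but the lowest knock-in library were above the wild type range for both genes. Atp6v1c1, Atp6v1d and Atp6v1g1 rose by 0.54, 0.80 and 0.65 (log2; edgeR adjusted p = 0.0036453, 0.0060713 and 0.034235). The call of Atp6v1g1 was lost in 8 of the 12 fits that left out 1 library, those without knock-in replicate 2, 3, 4 or 5 or wild type replicate 1, 2, 4 or 6 (edgeR adjusted p = 0.054578 to 0.080733). With no filter on low counts it was also lost (edgeR adjusted p = 0.11301). Atp6v1f, for the F subunit of the central stalk, had a log2 fold change of 0.06 (SE 0.19; edgeR adjusted p = 0.86533). Both accessory genes rose, Atp6ap1 by 0.37 and Atp6ap2, also known as the prorenin receptor, by 0.47 on the log2 scale (edgeR adjusted p = 0.0023311 and 0.002465).

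Of the 4 lysosomal ion transport genes, 3 rose. Clcn7, the chloride-proton exchanger that balances the charge moved by the pump, had 129, 164 and 195 CPM in knock-in hematopoietic libraries, against 79.4, 94.2 and 118 CPM in wild type ones. The groups did not overlap, and the log2 fold change was 0.79 (SE 0.09; edgeR adjusted p = 0.00013663), with 0.84 in set 1 and 0.75 in set 2, each called. Ostm1, for the partner protein of CLCN7, had 68.4, 106 and 119 CPM in knock-in libraries, against 60.0, 71.8 and 99.4 CPM in wild type ones. These ranges overlapped, and the log2 fold change of 0.40 (SE 0.12; edgeR adjusted p = 0.043873) was near the threshold. The call was lost in 8 of the 12 fits that left out 1 library, namely knock-in replicates 2, 3, 4 and 5 and wild type replicates 1, 2, 3 and 6, at edgeR adjusted p = 0.054352 to 0.10003.

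Slc9b2, a sodium-proton exchanger that is abundant in osteoclasts, had 205, 309.9 and 336 CPM in knock-in hematopoietic libraries, against 4.72, 38.6 and 129 CPM in wild type ones. The wild type libraries were spread widely and all lay below the knock-in ones. Its log2 fold change of 2.69 (SE 0.66; edgeR adjusted p = 0.015902) was the largest of all tested members. Without the library of highest estimated stromal share in each genotype it was 2.73 with edgeR adjusted p = 0.051823, and without the filter on low counts 2.68 with edgeR adjusted p = 0.071341. Mcoln1, the lysosomal calcium channel, had 33.3, 40.5 and 42.8 CPM in knock-in libraries and 30.0, 39.9 and 49.2 CPM in wild type ones (log2 fold change 0.01, edgeR adjusted p = 0.96811).

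Of the 8 cathepsin genes, 1 rose and 1 fell, and the median log2 fold change was -0.00. Ctsl, for cathepsin L, had 318, 459 and 584 CPM in knock-in hematopoietic libraries, against 191, 213 and 261 CPM in wild type ones. All knock-in libraries were above all wild type ones, with a log2 fold change of 1.04 (SE 0.16; edgeR adjusted p = 0.00074656). Ctsb, for cathepsin B, had 2741, 3129.7 and 3804 CPM in knock-in libraries, against 3566, 4043 and 5203 CPM in wild type ones. The ranges overlapped, and the log2 fold change was -0.39 (SE 0.09; edgeR adjusted p = 0.012752). Ctss, Ctsz, Ctsc, Ctsd, Ctsh and Ctsa were not called. Among them Ctsz had a log2 fold change of 0.47 (SE 0.15; edgeR adjusted p = 0.053145), and Ctss, for the cathepsin S of antigen-presenting cells, one of 0.25 (SE 0.12; edgeR adjusted p = 0.20291). Part of the exon length of some members is shared with other genes. On the same strand it is 34.4% for Ctsd, 6.09% for Ctsl and 5.49% for Glb1. On the other strand it is 26.8% for Ctsl, 17.4% for Ctsa, 12.8% for Ctsb, 12.8% for Hexa, 11.8% for Atp6v0b, 9.86% for Atp6v0a2, 9.31% for Lamp1, 5.69% for Ostm1 and 5.31% for Npc1. How strand was counted is not given in the sources used here, and the values of these genes are uncertain to that extent.

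**Figure D4:**
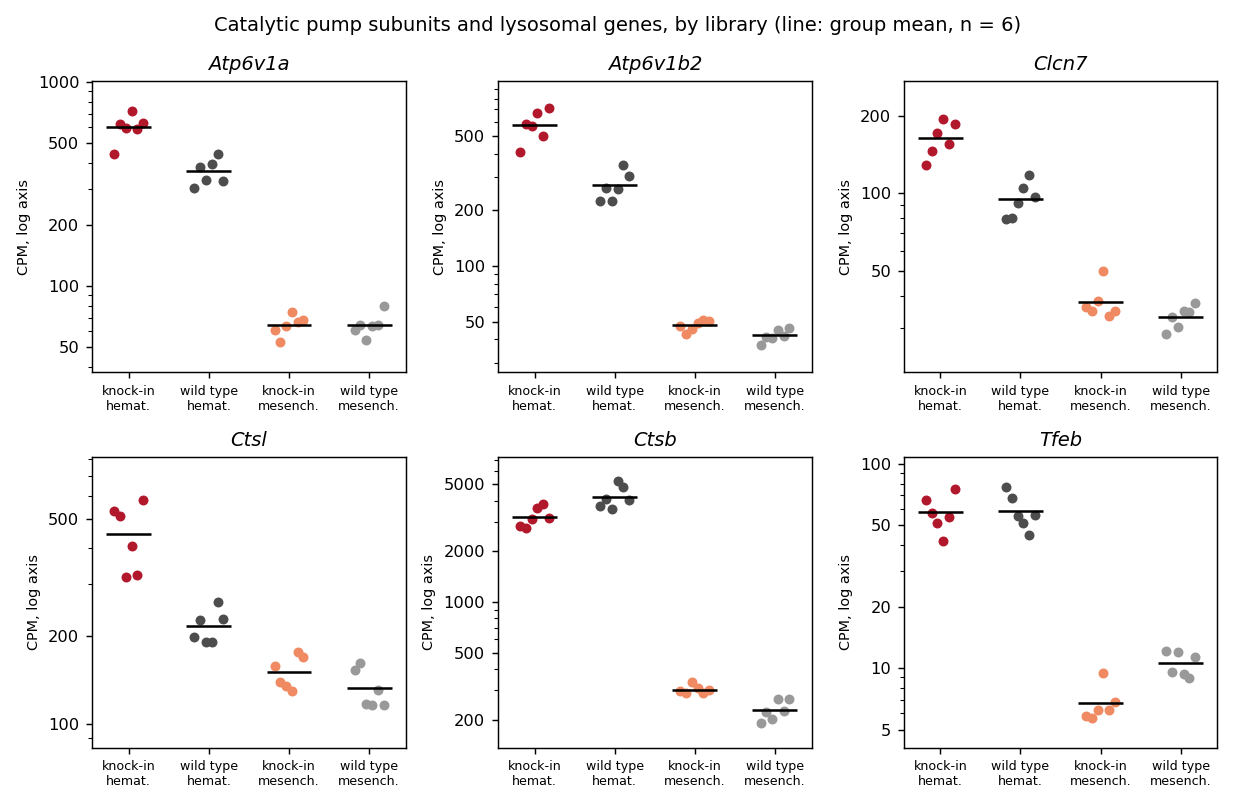
Level in CPM (log axis) of Atp6v1a, Atp6v1b2, Clcn7, Ctsl, Ctsb and Tfeb in every library, with knock-in left of wild type in each population and a line at the mean of 6. Knock-in hematopoietic libraries lie above the wild type ones for Atp6v1b2, Clcn7 and Ctsl, while Ctsb is lower in knock-in hematopoietic and higher in knock-in mesenchymal libraries.

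Few of the other lysosomal genes were called in hematopoietic cells. Of the 6 membrane proteins, Cd63, a tetraspanin of late endosomes, rose by 0.54 on the log2 scale (SE 0.14; edgeR adjusted p = 0.021625). Without knock-in replicate 4 or wild type replicate 1 the call was lost, at edgeR adjusted p = 0.051816 and 0.053223. Lamp1, Lamp2, Scarb2, Npc1 and Cd68, a glycoprotein of macrophage lysosomes, were not called, with log2 fold changes of -0.24 to 0.07. Of the 11 enzymes and lumen proteins, Npc2, which carries cholesterol out of the lysosome, rose by 0.25 (SE 0.07; edgeR adjusted p = 0.02371). That call was lost without knock-in replicate 3 or wild type replicate 1 (edgeR adjusted p = 0.051953 and 0.057518), without the filter on low counts (0.089233) and without the set term (0.094243). The other 10, namely Hexa, Gla, Glb1, Gusb, Man2b1, Neu1, Psap, Lipa, Lgmn and Tpp1, were not called, with log2 fold changes of -0.44 to 0.31. Lgmn, a protease of the lysosome, and Lipa, its acid lipase, were the lowest of them, at -0.44 and -0.41, with edgeR adjusted p = 0.25359 and 0.24367. The 49 members together took 1.98% of all counts in knock-in libraries and 1.94% in wild type libraries on average.

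The transcripts of the 2 transcription factors were not called. Tfeb had 42.0, 56.1 and 75.2 CPM in knock-in hematopoietic libraries and 45.0, 55.7 and 77.3 CPM in wild type ones (log2 fold change -0.02, edgeR adjusted p = 0.95681). Tfe3 had 77.2, 78.6 and 87.1 CPM in knock-in libraries and 67.1, 79.1 and 86.7 CPM in wild type ones (log2 fold change 0.03, edgeR adjusted p = 0.84698). These are transcript levels, and neither the amount nor the location of the proteins was measured. Of the 12 members with TCACGTG in the promoter window, 4 rose and 0 fell. Of the 28 members with a window but without those letters, 10 rose and 1 fell. These 28 include Atp6v0c, which had no test and could be called in neither direction. Of the 9 without a window, 5 rose and 1 fell. Of all genes tested, 9.01% rose and 6.89% fell. The share of members that rose was no larger with the letters than without them, and a link between the letters and the rise was not tested.

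Other genes of the pathway, outside the 49, were read from the same fit. Of all genes tested in that hematopoietic fit, 15.9% were called, 9.01% higher and 6.89% lower. Of 8 tested further pump genes, 1 rose: Dmxl2, for a protein that helps assemble the pump, with a log2 fold change of 0.98 (SE 0.11; edgeR adjusted p = 0.00012768). Of 30 further enzymes and lumen proteins, 8 rose and 3 fell. Arsb, an arylsulfatase, rose by 0.90 and Gm2a, an activator protein for ganglioside breakdown, by 0.45, with edgeR adjusted p = 0.0021293 and 0.0093644. Galc, the galactosylceramidase, fell by 0.34 and Pla2g15, a lysosomal phospholipase, fell by 0.48 (log2; edgeR adjusted p = 0.0050322 and 0.011268). Of 18 further membrane proteins, 1 rose and 3 fell, Cd164 by the most (log2 fold change -0.73, SE 0.07, edgeR adjusted p = 3.5804e-05). Of 18 genes for lysosomal sorting or for factors of the family of TFEB and TFE3, 4 rose and 1 fell. Igf2r, the large mannose 6-phosphate receptor, rose by 1.21 (SE 0.11; edgeR adjusted p = 2.5825e-05), and M6pr, the small one, by 0.42 (SE 0.10; edgeR adjusted p = 0.011244). Gnptab, which makes the mannose 6-phosphate tag on lysosomal enzymes, rose by 1.36 (SE 0.17; edgeR adjusted p = 0.00028562). Sort1, for the sorting receptor sortilin, fell by 0.56 (SE 0.14; edgeR adjusted p = 0.017306). Sort1 was also lower in mesenchymal cells, with a log2 fold change of -0.63 (SE 0.14; edgeR adjusted p = 0.014843).

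In mesenchymal cells, 3 of 48 tested members were higher with the knock-in and 2 lower, against 7.27% called of all 13867 genes tested, 3.44% higher and 3.83% lower. The 3 higher members were Atp6v0d2, Slc9b2 and Ctsb, and the 2 lower were Atp6v0a1 and Tfeb. All 5 of these members had the same direction in both file-name sets. The calls were made on these same libraries, so this is no separate support for them. Atp6v0d2 and Slc9b2 passed the filter on low counts through their knock-in libraries, with 3 to 12 and 0 to 13 counts per wild type library. DESeq2's Wald test called 8 members higher and 3 lower (12% of all genes called). With edgeR, set 1 alone gave 3 called members, namely Ctsb, Tfeb and Atp6v1f, the last not among these 5. Set 2 alone gave 0, with 12 at an unadjusted p under 0.05. With both sets, none of the 8 V1 genes was called by edgeR's quasi-likelihood test, and their median log2 fold change was 0.08. Atp6v1f, a V1 gene, was called in set 1 alone, with a log2 fold change of -1.71 (edgeR adjusted p = 0.0053394). In set 2 it had the other sign, at 0.23 (edgeR adjusted p = 0.77314).

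Atp6v0d2 had 1.34, 7.35 and 13.3 CPM in knock-in mesenchymal libraries, against 0.195, 0.445 and 0.840 CPM in wild type ones. The groups did not overlap, but 3 knock-in libraries, replicates 3 to 5, held 12.3, 12.8 and 13.3 CPM and the other 3 held 1.34 to 2.42 CPM. The log2 fold change was 3.92 (SE 0.67; edgeR adjusted p = 0.0052799). It rested on 19 to 197 counts per knock-in library and 3 to 12 counts per wild type library, so the gene passed the filter on low counts through its knock-in libraries. From the estimated share of hematopoietic RNA alone, 0.801 to 5.70 CPM would be expected in knock-in libraries and 0.315 to 0.694 CPM in wild type ones. In knock-in replicates 3 to 5 the expected level was 5.70, 5.43 and 4.47 CPM. After subtraction of that share too few counts were left for a test, with 80 to 131 counts in those 3 libraries, 0 to 8 in the other knock-in libraries and 0 to 2 in wild type ones. The same 3 libraries had 18.3, 21.9 and 22.2 CPM of Acp5, the osteoclast phosphatase, against 2.62 to 4.25 CPM in the other 3 knock-in libraries. Among the other osteoclast markers, Ctsk, Mmp9, Nfatc1 and Itgb3 were also higher in these libraries, as were Ocstamp, Oscar and Tnfrsf11a at low levels. Calcr, Dcstamp, Car2 and Src overlapped. Jdp2 was lower in replicates 3 to 5, at 72.4 to 78.9 CPM against 84.8 to 103 CPM. For Itgb3 the lowest of knock-in replicates 3 to 5 was 62.2 CPM, against 62.0 CPM in knock-in replicate 6. Wild type mesenchymal libraries held 129 to 263 CPM of Nfatc1, a range that covers knock-in replicates 3 to 5 at 171 to 248 CPM. The wild type libraries held 39.9 to 74.5 CPM of Ctsk, 31.2 to 60.8 CPM of Itgb3 and 0.230 to 1.12 CPM of Mmp9.

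Slc9b2 had 0.990, 2.76 and 5.57 CPM in knock-in mesenchymal libraries, against 0, 0.259 and 0.845 CPM in wild type ones. The groups did not overlap, and the gene too passed the filter through its knock-in libraries (log2 fold change 3.29, SE 0.64, edgeR adjusted p = 0.008558). Hematopoietic RNA alone would give 0.381 to 2.71 CPM in knock-in libraries and 0.126 to 0.277 CPM in wild type ones. After its subtraction 1 to 46 counts of Slc9b2 were left per knock-in library and 0 to 11 per wild type library, too few for a test. In the fit of all 24 libraries the call was lost, at 3.18 with edgeR adjusted p = 0.05578. Ctsb had 287, 299 and 333 CPM in knock-in libraries, against 191, 224 and 268 CPM in wild type ones. All knock-in libraries were above all wild type ones, and the log2 fold change was 0.42 (SE 0.08; edgeR adjusted p = 0.0069133). Atp6v0a1 had 75.3, 79.4 and 85.3 CPM in knock-in libraries, against 96.6, 107 and 122 CPM in wild type ones. It was lower in every knock-in library than in any wild type library, with a log2 fold change of -0.42 (SE 0.07; edgeR adjusted p = 0.0022394).

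Tfeb had 5.71, 6.23 and 9.51 CPM in knock-in mesenchymal libraries, against 8.93, 10.5 and 12.1 CPM in wild type ones. All but 1 of the knock-in libraries were below the wild type range, and the log2 fold change was -0.64 (SE 0.15; edgeR adjusted p = 0.021897). The call was lost without knock-in replicate 1 or 2 or wild type replicate 6, at edgeR adjusted p = 0.061645, 0.055527 and 0.051162. Tcirg1 had 23.8, 28.6 and 38.5 CPM in knock-in libraries, against 19.4, 24.2 and 33.4 CPM in wild type ones (log2 fold change 0.28, SE 0.12, edgeR adjusted p = 0.19177). Clcn7 had 33.5, 35.7 and 49.8 CPM in knock-in libraries and 28.3, 33.9 and 37.6 CPM in wild type ones (log2 fold change 0.21, edgeR adjusted p = 0.21412). Both genes overlapped between the groups. Ctsc, for the cathepsin that activates serine proteases of leukocytes, had a log2 fold change of 0.74 (SE 0.21; edgeR adjusted p = 0.058541).

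By transcript share in mesenchymal cells, a3 averaged 19.6% ± 2.12 in knock-in and 14.5% ± 1.23 in wild type libraries, and d2 averaged 6.13% ± 4.75 in knock-in and 0.397% ± 0.206 in wild type libraries (SD, n = 6 each). The d2 share was 9.98% to 10.7% in knock-in replicates 3 to 5 and 1.36% to 2.23% in the other 3 knock-in libraries. After subtraction of hematopoietic RNA, an alternative chosen after seeing the data, the mean d2 share was 3.43% in knock-in and 0.0195% in wild type libraries. The a2 form was 43.0% of the a transcript in knock-in and 40.7% in wild type mesenchymal libraries.

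The difference between the genotype effects, hematopoietic minus mesenchymal, was called for 13 members in the fit of all 24 libraries. In 11 the knock-in effect was more positive in hematopoietic cells and in 2 more negative, against 7.28% called of all 15389 genes tested, 4.36% more positive and 2.92% more negative. The 11 included 7 pump genes. Atp6v1b2 differed by 0.89 (edgeR adjusted p = 0.00016376), Atp6v1a by 0.71 (edgeR adjusted p = 0.001345) and Atp6v1d by 1.03 (edgeR adjusted p = 0.0019307) on the log2 scale. Clcn7 differed by 0.57 and Ctsl by 0.83, with edgeR adjusted p = 0.0074353 and 0.0084614. Atp6v0a1 fell in both populations, and by more in hematopoietic cells (difference -0.48, SE 0.11, edgeR adjusted p = 0.0077976). Ctsb moved in opposite directions, lower in knock-in hematopoietic and higher in knock-in mesenchymal cells (difference -0.82, SE 0.13, edgeR adjusted p = 0.00030753). For Tcirg1 the effects were not shown to differ (difference 0.40, edgeR adjusted p = 0.20086). The differences for Atp6v0d2 and Slc9b2, neither of them called, rested on 3 to 12 and 0 to 13 counts per wild type mesenchymal library, and nothing is read from them.

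Nearly all members were higher in hematopoietic than in mesenchymal cells. In the knock-in 46 of 48 were higher and 1 lower, and in the wild type 46 were higher and 2 lower. Of all genes tested, 73% were called in the knock-in, 39.1% higher and 33.9% lower, and 73.5% in the wild type, 38% higher and 35.4% lower. The median log2 difference over members was 2.25 in the knock-in and 2.10 in the wild type, against medians over all genes of 0.07 in the knock-in and 0.03 in the wild type. The 8 cathepsins had a median of 3.09 in wild type. Ctss and Cd68 had log2 differences of 7.91 and 7.03 in wild type. In wild type mesenchymal libraries Ctss had 4.29 to 9.47 CPM and Cd68 1.61 to 2.50 CPM. For Cd68, 0.786 to 1.73 CPM would be expected there from the estimated share of hematopoietic RNA alone. The part of hematopoietic RNA in both differences was not tested, so their sizes are uncertain. Per kilobase of exon, Ctss was the most abundant member in hematopoietic cells, with means of 1419.5 CPM per kilobase in the knock-in and 1196 CPM per kilobase in the wild type. The ubiquitous pump subunits were nearer to the mesenchymal level, with medians of 1.82 in the knock-in and 1.23 in the wild type. Of the osteoclast-type subunits, Tcirg1 was higher by 3.50 in the knock-in and 3.10 in the wild type, as log2 differences. No size is given for Atp6v0d2, which had 3 to 12 counts in wild type mesenchymal libraries, near the number expected there from hematopoietic RNA. Atp6v0a2 was lower in hematopoietic cells of both genotypes, by log2 differences of -0.49 in the knock-in and -0.61 in the wild type (edgeR adjusted p = 0.00018378 and 1.5929e-05). Cd63 was lower in wild type hematopoietic cells (log2 difference -0.67, edgeR adjusted p = 6.6678e-05) and was not called in the knock-in, where its log2 difference was -0.08. The members together took 1.98% of counts in knock-in and 1.94% in wild type hematopoietic libraries, against 0.338% in knock-in and 0.329% in wild type mesenchymal libraries.

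Without overlap between the 6 knock-in and 6 wild type hematopoietic libraries, 5 of the 48 tested members lay higher in the knock-in (Atp6v0d2, Atp6v1b2, Clcn7, Slc9b2 and Ctsl) and 1 lower (Atp6v0a1). Of all genes tested, 7.54% did not overlap. In mesenchymal libraries 4 members lay higher (Atp6v0d2, Slc9b2, Ctsb and Man2b1, a lysosomal mannosidase that was not called) and 1 lower (Atp6v0a1), against 3.87% of all genes. Atp6v0d2 and Slc9b2 passed the filter on low counts through their knock-in libraries. They held 3 to 12 and 0 to 13 counts per wild type mesenchymal library, so nothing is read from their lack of overlap there.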

How the data were processed

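Per the labels' protocols, total RNA was depleted of ribosomal RNA, made into stranded libraries and sequenced from paired ends. The deposited files hold whole-number counts per gene, not normalised. HTSeq 0.9.1, FastQC 0.11.7, DESeq2 1.20.0 and MultiQC are named in the submitters' processing notes, with build GRCm38 (mm10). Not given in the sources used here are aligner settings, annotation release and how strand was counted. Symbols and exon lengths came from GENCODE M21, which matched 54165 of 54232 identifiers.

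Genes passing edgeR's filterByExpr (minimum count 10, minimum total 15) were scaled by TMM and tested in R 4.3.3 with edgeR 4.0.16's quasi-likelihood test (robust). P-values were adjusted by Benjamini-Hochberg over all genes tested, with a threshold of 0.05. Genotype comparisons used the 12 libraries of a population, and population differences and the interaction all 24. A prefix of the deposited file names splits each group into 2 sets of 3 libraries. No label says what it marks, and it was a term in every fit. CPM are counts scaled with TMM factors, and CPM per kilobase divides by the length of all annotated exons joined. Replicates differed by 6.73 to 58.8 in chi-square per degree of freedom, so none was merged. Replicate numbers were not taken as pairs.

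RNA of the other population was estimated as a share, from stromal or leukocyte markers with a mean of 10 CPM or more. Tests were tried on simulated data. Alternatives included DESeq2 1.42.0, its size factors, no filter, each set alone and each library left out.

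The members and the gene lists were chosen with earlier results of these data known. All members are accounted for by role. Full values were given to the a and d subunits, Clcn7, Ostm1, Slc9b2, Mcoln1, Tfeb and Tfe3, and to the 6 other members per genotype comparison with the lowest adjusted p among those called. Of other lists, up to 4 called members by adjusted p were named. Ctsc in mesenchymal cells, Ctsz and Man2b1 were chosen after their values were seen.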

Additional observations from a re-analysis of the deposited data

Results flagged for a closer look

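In 3 of 80 groups of 6 libraries checked, 1 library stood apart from the other 5, where chance gives about 1 in 20. All 3 were knock-in mesenchymal: Clcn7 had 49.8 CPM in replicate 4, with the next at 38.3 CPM, Mcoln1 had 24.5 CPM in replicate 6, with the next at 18.5 CPM, and Tfeb had 9.51 CPM in replicate 4, with the next at 6.86 CPM.

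For 13 members the knock-in effect differed between the populations by the interaction term of edgeR's fit. On the log2 scale, hematopoietic minus mesenchymal, the difference was 0.71 for Atp6v0b, 0.54 for Atp6v0e, 0.71 for Atp6v1a, 0.89 for Atp6v1b2, 1.03 for Atp6v1d, 0.56 for Atp6v1e1, 0.40 for Atp6ap2, 0.57 for Clcn7, 0.83 for Ctsl, 0.60 for Cd63 and 0.34 for Npc2. It was -0.48 for Atp6v0a1 and -0.82 for Ctsb. The hematopoietic libraries held 5.06% to 21.8% (knock-in) and 6.29% to 19.2% (wild type) of estimated mesenchymal RNA, and the part of this in the differences was not tested gene by gene. After subtraction of the other population's share, 15 of 48 members were called, against 9.82% of all genes (7.28% before).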

How the results depend on the processing

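With the 3 libraries per group of a single file-name set, edgeR called fewer genes than with both sets. Among all genes in hematopoietic cells, 672 were called with set 1 and 218 with set 2 (2231 with both). In mesenchymal cells these counts were 391 and 76 (1008 with both), and for the interaction 180 and 138 (1121 with both). Among members they were 9 and 3 (21 with both) in hematopoietic cells, 3 and 0 (5 with both) in mesenchymal cells and 4 and 0 (13 with both) for the interaction. At an unadjusted p under 0.05, set 2 alone gave 12 members in mesenchymal cells and 10 for the interaction. DESeq2's Wald test called 1664 genes and 11 members in mesenchymal cells. The cause was not tested.

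Leaving out 1 library at a time gave 1745 to 2206 genes and 17 to 23 members in hematopoietic cells, 646 to 1036 genes and 4 to 8 members in mesenchymal cells, and 937 to 1166 genes and 9 to 16 members for the interaction. The lowest mesenchymal count of genes came without knock-in replicate 1. Hematopoietic over mesenchymal gave 11078 to 11257 genes in the knock-in and 11135 to 11334 in the wild type, with 47 and 48 members throughout. Without the library of highest stromal share in each genotype, 14 of 48 members rose and 2 fell in hematopoietic cells, against 1612 called of all 14005 genes tested. The call of Ostm1 was also lost without the filter (edgeR adjusted p = 0.05172), without the set term (0.084483), after subtraction (0.082195) and without the most stromal libraries (0.095974). That of Atp6v1g1 was lost without the set term (0.058793), after subtraction (0.059471) and without the most stromal libraries (0.073733), and that of Npc2 after subtraction (0.05939) and without the most stromal libraries (0.074993). With the replicate number as a block, 23 members rose and 6 fell in hematopoietic cells (3315 genes called), 4 rose and 3 fell in mesenchymal cells (1258 genes) and 15 were called for the interaction (1331 genes). The members called with the block and not without it were Ctsc, Ctss, Ctsz, Lamp2, Glb1, Lipa, Lgmn and Tpp1 in hematopoietic cells, Ctsc and Ctsh in mesenchymal cells and Ctsc and Ctsz for the interaction. The block lost no called member. No label pairs the numbers. Deviations of same-numbered libraries correlated by 0.0876 to 0.497 in hematopoietic and -0.0446 to 0.386 in mesenchymal cells, not all over 0.1, and 3 of 6 correlated best with their own number in each, a hint from the data only.

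The mean d2 share in wild type mesenchymal libraries was 0.0195% after subtraction of the other population, against 0.397% before. Among named members, 376 values under an alternative kept direction and call, 46 lost the call and 1 gained it. The other 24 changed sign, all of them uncalled. In hematopoietic cells Atp6v0a2 was -0.018 with 1 library left out. Mcoln1 was -0.0836 in set 2, -0.00413 with all 24 libraries, -0.0761 without the most stromal libraries and -0.00822 with 1 left out. Tfeb was 0.178 in set 2, 0.00678 without the most stromal libraries and 0.00511 with 1 left out. Tfe3 was -0.00642 and -0.00684 in the last 2. In mesenchymal cells Atp6v0a2 was 0.0833 in set 1 and 0.00747 with 1 left out, Ostm1 0.0459 in set 2 and 0.0234 with 1 left out, and Mcoln1 0.104 in set 2 and 0.0144 with 1 left out. Atp6v1a was -0.0057 with no filter, -0.0394 in set 1, -0.0342 after subtraction, -0.00292 with all 24 libraries and -0.00158 with 1 left out. In set 1 Ctsl was -0.019965 and Atp6v0e -0.0166, and in set 2 Atp6v1e1 was 0.106.

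The labels' replicate source, the strand setting and the meaning of the file-name sets limit what the p-values cover. Low counts limit Atp6v0d2 and Slc9b2 in mesenchymal cells.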

Other observations

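Atp6v0c, listed at 0 in all 24 libraries, has an annotated pseudogene, Atp6v0c-ps2, chosen here after its values were seen. The pseudogene had 27.2, 42.4 and 59.5 CPM (lowest, median and highest of 6) in knock-in hematopoietic libraries, against 15.7, 26.7 and 32.4 CPM in wild type ones. In mesenchymal libraries it had 5.71, 7.26 and 8.65 CPM in the knock-in and 2.84, 6.59 and 7.82 CPM in the wild type. The log2 fold change was 0.77 in hematopoietic cells (SE 0.20; edgeR adjusted p = 0.021355) and 0.27 in mesenchymal cells (edgeR adjusted p = 0.50138). Which reads the counting gave to the gene and which to the pseudogene was not tested, so no level of the c subunit is given.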
